A study of Mus musculus with 11 samples.

Results

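TREM2-type lipid-associated macrophage genes are 8 genes, *Trem2*, *Tyrobp*, *Gpnmb*, *Spp1*, *Cd9*, *Cd63*, *Lgals1* and *Lgals3*, that were picked by symbol among the 12932 genes in the expression table of an RNA-seq experiment on mouse alveolar macrophages (AMs). All 8 were found, and all 8 passed the filter on low values (1 CPM or more in at least 3 libraries). Sorted cells of 3 groups from 9-week-old male and female C57BL/6J mice were compared, with 40000 cells per library. Control mAMs (mature AMs, CD11b-/SiglecF+; libraries mAM_WT 1 to 4) came from mice of genotype CD11cCre- Rxrabfl/fl. RXR-deficient mAMs (the same gate; mAM_KO 1 to 4) and ImmAMs (immature AMs, CD11b+/SiglecF+; Imm_KO 2 to 4) came from CD11cCre+ Rxrabfl/fl mice, in which a Cre recombinase driven by the Cd11c promoter deletes the floxed genes of the retinoid X receptors RXRα and RXRβ in Cd11c-expressing cells. The floxed alleles were carried by all 3 groups, so that control mAMs differ from RXR-deficient mAMs in the Cre transgene. ImmAMs differ from control mAMs in the Cre and in the CD11b gate together, and these cannot be told apart in that comparison. The study's table of genes that differ between the mAM groups has columns for RXR-deficient mAM replicates 1 to 3 and none for replicate 4, with no reason found in the sources used here. Its value is given here for each gene, and it enters no mean or test unless stated. Values are CPM on TMM-scaled library sizes, which compare a gene between libraries.

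TREM2 is a receptor on the surface of macrophages and microglia that binds lipids and lipoproteins. It has no signalling motif of its own and signals through the adaptor DAP12, encoded by *Tyrobp*, to the kinase SYK. Macrophages that take up much lipid, in adipose tissue, atherosclerotic plaques and the brain, are known for a common set of genes that includes *Trem2*, the glycoprotein gene *Gpnmb*, the osteopontin gene *Spp1*, the tetraspanin genes *Cd9* and *Cd63*, and the galectin genes *Lgals1* and *Lgals3*. AMs take up surfactant lipid as part of their normal function and express most of these genes in health.

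The 250 bases before the RefSeq start of 4 of these genes are shown because these genes had the largest differences between groups. They are the plus strand of GRCm38.p6, from RefSeq, 5′ to 3′, in lower case. A RefSeq entry was matched for 6 of the 8 genes. Capitals mark matches on either strand to the AP-1 motif TGANTCA, to GAGGAAG, a core of PU.1 sites, and to AGGTCA, the hexamer that nuclear receptors such as RXR and its partners bind. The E-box CACGTG, bound by the MiT factors that control *Gpnmb*, and DR1, a pair of AGGTCA hexamers with 1 base between them, were also searched for. No motif matches overlap one another here.
Trem2 (chr17:48346151-48346400, plus strand): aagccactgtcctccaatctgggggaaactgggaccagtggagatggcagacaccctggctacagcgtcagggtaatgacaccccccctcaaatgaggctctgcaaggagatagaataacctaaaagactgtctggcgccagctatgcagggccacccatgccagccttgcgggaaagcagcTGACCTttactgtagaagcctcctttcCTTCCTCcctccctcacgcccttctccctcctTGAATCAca
Gpnmb (chr6:49036268-49036517, plus strand): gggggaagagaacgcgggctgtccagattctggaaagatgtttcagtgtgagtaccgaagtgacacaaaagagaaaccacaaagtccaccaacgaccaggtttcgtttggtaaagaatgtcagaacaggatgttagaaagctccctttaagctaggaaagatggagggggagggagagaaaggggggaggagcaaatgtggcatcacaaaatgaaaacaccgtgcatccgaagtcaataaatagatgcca
Cd63 (chr10:128909095-128909344, plus strand): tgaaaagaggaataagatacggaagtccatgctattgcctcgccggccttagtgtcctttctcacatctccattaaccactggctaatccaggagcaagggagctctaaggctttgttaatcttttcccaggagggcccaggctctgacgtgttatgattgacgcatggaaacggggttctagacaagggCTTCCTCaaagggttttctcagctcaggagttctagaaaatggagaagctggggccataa
Spp1 (chr5:104434861-104435110, plus strand): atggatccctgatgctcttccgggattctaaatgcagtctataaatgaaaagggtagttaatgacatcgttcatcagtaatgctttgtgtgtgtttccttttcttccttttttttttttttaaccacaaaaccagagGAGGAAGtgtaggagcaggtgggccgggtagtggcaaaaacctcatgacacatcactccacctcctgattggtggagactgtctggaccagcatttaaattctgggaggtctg
*Trem2* holds an AP-1 match 9 bases before the start, a PU.1 match 41 bases before it and the hexamer 68 bases before it. *Cd63* holds a PU.1 match 60 bases before the start and *Spp1* one at 113 bases, and *Gpnmb* holds none of the 5 motifs in this window. RefSeq has a further start of *Spp1*, within the gene, whose window (chr5:104435942-104436191) holds none of the 5 motifs either and is not printed. The printed *Cd63* window also lies within the annotated span of its gene (128900989 to 128912822) and not before it. Among the 32851 mouse promoters of the same length, the AP-1 motif is found in 6.75%, the PU.1 core in 10.6%, the hexamer in 14.0%, the E-box in 6.02% and DR1 in 0.0335%. These matches are letters in a window and were tested against no measurement.

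The 8 genes did not move as one group. *Trem2*, *Gpnmb* and *Cd63* rose stepwise from control mAMs to RXR-deficient mAMs to ImmAMs. *Cd9* and *Lgals1* fell in ImmAMs, *Spp1* was lowest in ImmAMs, and *Tyrobp* and *Lgals3* stayed within narrow ranges. The fall of *Lgals1* in RXR-deficient mAMs was small, and its call was lost in most other fits. Between RXR-deficient and control mAMs, 3 of the 8 were called higher and 1 lower (limma p-adj under 0.05), where 4.84% of all 12889 genes tested were called, 2.25% higher and 2.59% lower. Between ImmAMs and control mAMs, 3 were called higher and 3 lower, beside 48.1% of all genes (22.8% higher and 25.3% lower), and between ImmAMs and RXR-deficient mAMs 4 higher and 2 lower, beside 37.9% (17.7% higher and 20.2% lower). Without RXR-deficient replicate 4, the libraries of the groups did not overlap in 5, 6 and 8 of the 8 genes, where 20.1%, 51.3% and 51.2% of all genes did not. Once replicate 4 was included, the libraries did not overlap in 4 genes between the mAM groups, all higher in RXR-deficient mAMs. Each comparison with ImmAMs then had 3 higher and 3 lower. The shares of all genes without overlap were not computed with replicate 4 included, so these counts have no background beside them. The median log2 fold change of the 8 was 0.15, 0.10 and 0.23 in these comparisons, beside medians of −0.00, −0.00 and −0.01 over all genes. The 3 comparisons share groups and one fit, so they are not independent of one another. In bulk RNA, a change in the number of cells that express a gene and a change in RNA per cell cannot be told apart.

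**Figure D1:**
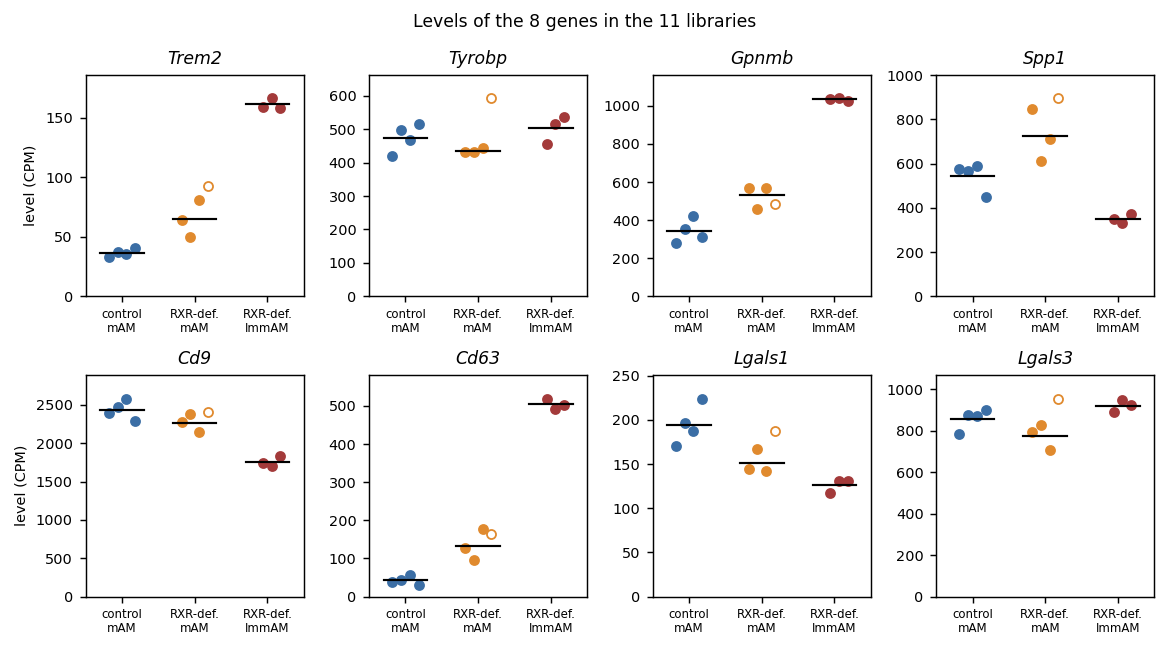
Level of each of the 8 genes (y axis, CPM, starting at 0) in the 11 libraries, grouped on the x axis as control mAMs (blue, n = 4), RXR-deficient mAMs (orange, n = 3, with replicate 4 as an open circle) and RXR-deficient ImmAMs (red, n = 3); bars are means without replicate 4. *Trem2*, *Gpnmb* and *Cd63* show 3 separate steps, *Spp1* is highest in RXR-deficient mAMs and lowest in ImmAMs, and *Tyrobp* and *Lgals3* show only small shifts.

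The receptor gene *Trem2* (ENSMUSG00000023992, chromosome 17, 48346401 to 48354147, plus strand, GRCm38) stood at 32.7, 37.3, 35.5 and 40.2 CPM in the 4 control mAM libraries. It stood at 63.8, 49.8 and 81.1 CPM in RXR-deficient mAM replicates 1 to 3 and at 93.0 CPM in replicate 4. In ImmAM replicates 2 to 4 it stood at 159, 166 and 159 CPM. Every RXR-deficient library was above every control library, replicate 4 included, and every ImmAM library was above all mAM libraries. *Trem2* rose from 36.4 ± 3.16 CPM (SD, n = 4) in control mAMs to 64.9 ± 15.7 CPM (n = 3) in RXR-deficient mAMs, a log2 fold change of 0.81 (SE 0.131, p-adj 0.00679 in limma). ImmAMs reached 162 ± 4.32 CPM (n = 3), 4.45-fold the control level (log2 fold change 2.15, SE 0.131, p-adj 3.25e-08 in limma) and 2.54-fold the level of RXR-deficient mAMs (log2 fold change 1.34, SE 0.140, p-adj 7.87e-06 in limma). Without a variance trend in the model, the call between the mAM groups was lost (p-adj = 0.0516).

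*Tyrobp* (ENSMUSG00000030579, chromosome 7, 30413760 to 30417585, plus strand), the gene of the adaptor that carries the TREM2 signal, was measured at 419, 498, 469 and 515 CPM in control mAMs. It was at 431, 432 and 445 CPM in RXR-deficient mAM replicates 1 to 3, at 593 CPM in replicate 4, and at 456, 517 and 538 CPM in ImmAMs. The groups overlap, apart from ImmAMs, which lie above RXR-deficient mAM replicates 1 to 3 and not above replicate 4. No comparison called *Tyrobp*. Its log2 fold change was −0.12 in RXR-deficient against control mAMs (95% interval −0.29 to 0.05, limma p-adj = 0.384). It was 0.09 in ImmAMs against control mAMs (−0.09 to 0.26, limma p-adj = 0.402), and neither interval reaches the values of *Trem2*. The latter difference was called after quantile normalization (0.22, p-adj = 0.0336). In ImmAMs against RXR-deficient mAMs it was 0.21 (0.02 to 0.39, limma p-adj = 0.0758). DESeq2 called this last difference (p-adj = 0.0343), as did limma after quantile normalization, with only these 2 groups in the fit (p-adj = 0.0398), without ImmAM replicate 2 (p-adj = 0.0378) and without control replicate 1 (p-adj = 0.0451), and it was not called with all 11 libraries.

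The ratio of *Trem2* to *Tyrobp* within each library does not depend on the scaling of the libraries. It was 0.0780, 0.0749, 0.0756 and 0.0781 in control mAMs. In RXR-deficient mAMs it was 0.148, 0.115 and 0.182, with 0.157 in replicate 4. In ImmAMs it was 0.349, 0.322 and 0.295. The control libraries lie within a very narrow band, and the 3 groups do not overlap. The mean ratio went from 0.0767 ± 0.00165 (n = 4) to 0.149 ± 0.0336 (n = 3) and 0.322 ± 0.0269 (n = 3), with no test on the ratio itself. It compares a ratio between groups and says nothing of the number of receptor and adaptor transcripts, since the genes differ in length.

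A pair of these genes encodes matrix or membrane glycoproteins that bind integrins and other receptors. *Gpnmb* (ENSMUSG00000029816, chromosome 6, 49036546 to 49070929, plus strand), a lysosomal and surface glycoprotein gene known as a marker of lipid-laden phagocytes, was at 278, 352, 421 and 313 CPM in control mAMs. It was at 570, 458 and 571 CPM in RXR-deficient mAM replicates 1 to 3, at 485 CPM in replicate 4, and at 1039, 1040 and 1028 CPM in ImmAMs. The 3 groups do not overlap, and the ImmAM libraries are close to one another. *Gpnmb* rose by 0.65 on the log2 scale in RXR-deficient against control mAMs (SE 0.121, p-adj 0.0128 in limma) and by 1.62 in ImmAMs against control mAMs (SE 0.121, p-adj 2.07e-07 in limma). ImmAMs were also above RXR-deficient mAMs, by 0.97 (SE 0.129, p-adj 6.65e-05 in limma). The call between the mAM groups was lost without RXR-deficient replicate 1 (p-adj = 0.0568) or replicate 3 (p-adj = 0.0639), with log2 fold changes of 0.60 in both fits, and without a variance trend (p-adj = 0.0680).

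*Spp1* (ENSMUSG00000029304, chromosome 5, 104435118 to 104441050, plus strand) encodes osteopontin, a secreted ligand of integrins and CD44. It was at 577, 567, 588 and 449 CPM in control mAMs. It was at 846, 613 and 709 CPM in RXR-deficient mAM replicates 1 to 3, at 895 CPM in replicate 4, and at 348, 331 and 374 CPM in ImmAMs. All RXR-deficient mAM libraries lie above all control libraries, and all ImmAM libraries lie below both. The difference between the mAM groups was 0.40 on the log2 scale (SE 0.113, p-adj 0.0608 in limma) and was not called. It was called with all 11 libraries (log2 fold change 0.48, limma p-adj = 0.0465), without RXR-deficient replicate 2 (0.52, p-adj = 0.0196), by DESeq2 (0.41, p-adj = 0.00822) and after quantile normalization (p-adj = 0.0338). *Spp1* fell in ImmAMs by 0.63 against control mAMs (SE 0.113, p-adj 5.41e-04 in limma). It fell by 1.03 against RXR-deficient mAMs (SE 0.121, p-adj 2.20e-05 in limma), to 0.489 of the level there. *Spp1* and *Gpnmb* thus changed in opposite directions between mAMs and ImmAMs. The mean ratio of *Gpnmb* to *Spp1* in a library was 0.630 ± 0.106 (n = 4) in control mAMs, 0.742 ± 0.0654 (n = 3) in RXR-deficient mAMs and 2.96 ± 0.197 (n = 3) in ImmAMs. Of the 60-base windows of *Spp1* transcripts, 10.3% are also found in the overlapping gene *Gm42793*, which stood at 0.383 to 3.89 CPM over the 11 libraries, and how the authors' counting split such reads was not tested.

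*Cd63* (ENSMUSG00000025351, chromosome 10, 128900989 to 128912822, plus strand), the gene of a tetraspanin of late endosomes and lysosomes, had the widest range of the 8 relative to its level, from the lowest to the highest library. It was at 39.4, 42.5, 57.1 and 30.7 CPM in control mAMs. It was at 128, 94.8 and 177 CPM in RXR-deficient mAM replicates 1 to 3, at 163 CPM in replicate 4, and at 519, 493 and 502 CPM in ImmAMs. No library of one group overlaps another group. *Cd63* rose 3.12-fold in RXR-deficient against control mAMs (log2 fold change 1.64, SE 0.201, p-adj 0.00168 in limma), which ranked 17 by p-value among the 12889 genes tested. It rose 12.2-fold in ImmAMs against control mAMs (log2 fold change 3.61, SE 0.201, p-adj 1.52e-08 in limma) and 3.91-fold against RXR-deficient mAMs (log2 fold change 1.97, SE 0.215, p-adj 1.18e-05 in limma). Of its 60-base transcript windows, 8.71% are shared with other genes, among them *Cd63-ps*, which stood at 0.0246 to 10.2 CPM and is therefore far below *Cd63* in every library.

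*Cd9* (ENSMUSG00000030342, chromosome 6, 125460266 to 125494791, minus strand), the gene of a plasma membrane tetraspanin, was at 2399, 2476, 2582 and 2292 CPM in control mAMs. It was at 2274, 2388 and 2142 CPM in RXR-deficient mAM replicates 1 to 3, at 2413 CPM in replicate 4, and at 1744, 1705 and 1835 CPM in ImmAMs. The mAM groups overlap, and every ImmAM library is below every mAM library. *Cd9* was not called between the mAM groups (log2 fold change −0.10, 95% interval −0.26 to 0.05, limma p-adj = 0.386). It fell by 0.47 on the log2 scale in ImmAMs against control mAMs (SE 0.0697, p-adj 1.12e-04 in limma) and by 0.36 against RXR-deficient mAMs (SE 0.0745, p-adj 0.00185 in limma). After quantile normalization the second of these was no longer called (log2 fold change −0.17, p-adj = 0.0622). A share of 2.83% of the *Cd9* transcript windows is found in other genes, and 2 annotated genes overlap *Cd9* on the opposite strand. The ratio of *Cd63* to *Cd9* in a library was 0.0173 ± 0.00361 (n = 4) in control mAMs, 0.0596 ± 0.0217 (n = 3) in RXR-deficient mAMs and 0.287 ± 0.0121 (n = 3) in ImmAMs, with no overlap between the groups.

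The galectins bind β-galactosides, and galectin-3 also serves as a marker of damaged lysosomes. *Lgals1* (ENSMUSG00000068220, chromosome 15, 78926725 to 78930465, plus strand) was at 171, 197, 187 and 224 CPM in control mAMs. It was at 145, 167 and 142 CPM in RXR-deficient mAM replicates 1 to 3, at 188 CPM in replicate 4, and at 118, 131 and 131 CPM in ImmAMs. RXR-deficient replicates 1 to 3 lie below all controls, replicate 4 lies within them, and the ImmAM libraries lie below all others. The fall in RXR-deficient mAMs was small (log2 fold change −0.36, SE 0.0927, p-adj 0.0461 in limma). It was lost in 7 of 12 alternative fits, among them all 11 libraries (log2 fold change −0.28, p-adj = 0.186) and edgeR (p-adj = 0.0513), and in 8 of 10 fits without 1 library, at limma p-adj of up to 0.159; it remained only without RXR-deficient replicate 2 or control replicate 1. *Lgals1* fell by 0.62 in ImmAMs against control mAMs (SE 0.0927, p-adj 1.20e-04 in limma). Against RXR-deficient mAMs the log2 fold change of −0.26 was not called (limma p-adj = 0.0577), but it was with all 11 libraries (p-adj = 0.0255), with only these 2 groups in the fit (p-adj = 0.0290), without control replicate 1 (p-adj = 0.0413) and without control replicate 4 (p-adj = 0.0234).

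*Lgals3* (ENSMUSG00000050335, chromosome 14, 47367751 to 47386160, plus strand) was at 785, 876, 871 and 900 CPM in control mAMs. It was at 794, 827 and 708 CPM in RXR-deficient mAM replicates 1 to 3, at 956 CPM in replicate 4, and at 891, 949 and 925 CPM in ImmAMs. ImmAMs overlap control mAMs and lie above RXR-deficient replicates 1 to 3, and replicate 4 lies above every ImmAM library. *Lgals3* was not called against control mAMs, at a log2 fold change of −0.14 in RXR-deficient mAMs (95% interval −0.30 to 0.01, limma p-adj = 0.245) and of 0.11 in ImmAMs (−0.05 to 0.26, limma p-adj = 0.248), the latter being called after quantile normalization (0.22, p-adj = 0.0112). The higher level in ImmAMs than in RXR-deficient mAMs was called (log2 fold change 0.25, SE 0.0766, p-adj 0.0209 in limma). It was lost with all 11 libraries (0.17, p-adj = 0.155), without ImmAM replicate 3 (p-adj = 0.0718), without ImmAM replicate 4 (p-adj = 0.0575) and without RXR-deficient replicate 3 (p-adj = 0.0883). The ratio of *Lgals1* to *Lgals3* in a library was 0.227 ± 0.0157 (n = 4) in control mAMs, 0.195 ± 0.0108 (n = 3) in RXR-deficient mAMs and 0.137 ± 0.00464 (n = 3) in ImmAMs.

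**Figure D2:**
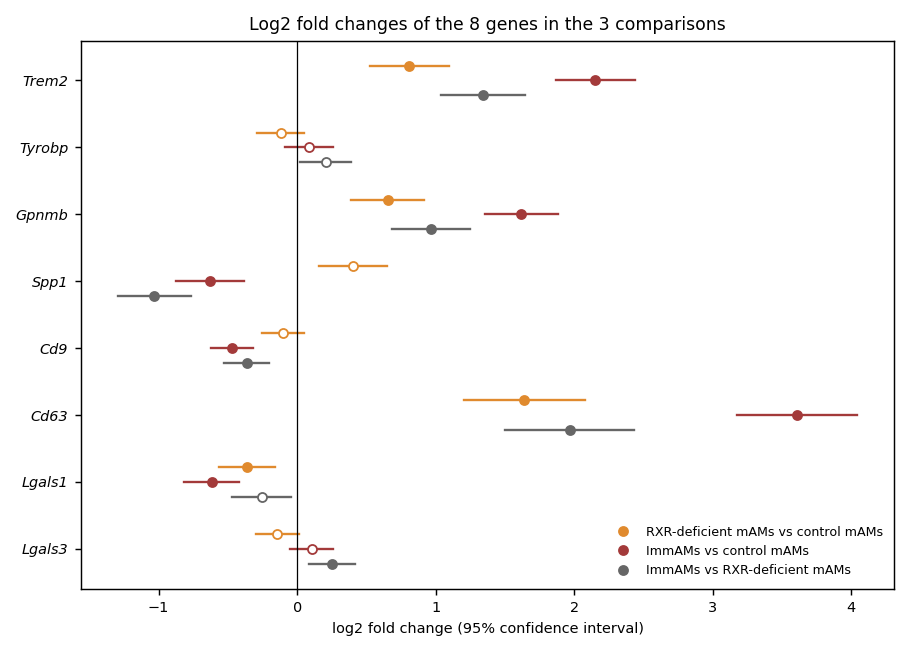
Log2 fold change (x axis) of each of the 8 genes (y axis) in the 3 comparisons, with 95% confidence intervals from limma as lines; filled points passed p-adj 0.05 over all genes and open points did not. *Cd63* has the largest values, 1.64, 3.61 and 1.97, the 3 intervals of *Tyrobp* lie close to 0, and *Spp1* lies on opposite sides of 0 in RXR-deficient mAMs (0.40) and ImmAMs (−0.63).

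**Figure D3:**
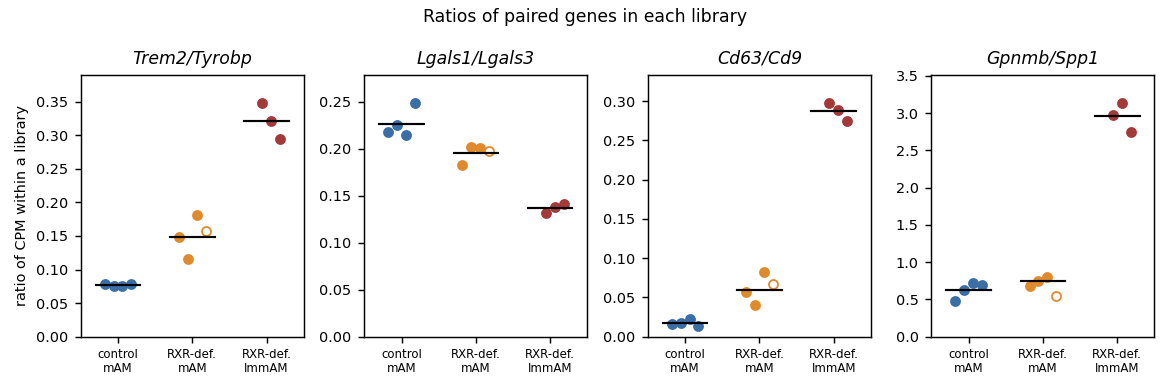
Ratio of the CPM of paired genes within each library (y axis, no unit, starting at 0), by group on the x axis as control mAMs (blue), RXR-deficient mAMs (orange, replicate 4 open) and RXR-deficient ImmAMs (red), with bars at the means without replicate 4. The ratios *Trem2*/*Tyrobp* and *Cd63*/*Cd9* rise over the groups to means of 0.322 and 0.287 in ImmAMs, *Lgals1*/*Lgals3* declines to 0.137, and *Gpnmb*/*Spp1* is far higher in ImmAMs, at 2.96, than in either mAM group.

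The RXR-deficient mAM libraries varied among themselves in the genes that rose. On the log2 scale, with the mean of control mAMs at 0% and the mean of ImmAMs at 100%, *Trem2* lay at 37.8%, 21.2%, 53.9% and 63.0% in replicates 1 to 4. *Gpnmb* lay at 46.7%, 27.4%, 46.9% and 32.4%, and *Cd63* at 45.1%, 33.2%, 58.1% and 54.8%. Replicate 2 was nearest to control mAMs in all 3 genes. Replicate 2 also kept the most of *Krt79*, an AM gene, at 402 CPM against 181, 116 and 217 CPM in replicates 1, 3 and 4, where control mAMs had 594 to 759 CPM and ImmAMs 5.96 to 7.01 CPM. It had the least of *Cx3cr1*, a gene of monocytes and recruited macrophages, at 1.51 CPM against 4.69, 8.34 and 2.31 CPM in replicates 1, 3 and 4, where ImmAMs had 110 to 124 CPM. Whether some ImmAMs in the mAM gate contribute to these values was not tested. *Krt79* and *Cx3cr1* were singled out after their values were seen. The coefficient of variation of *Trem2* was 24.2% in RXR-deficient mAMs (n = 3), 8.68% in control mAMs (n = 4) and 2.67% in ImmAMs (n = 3).

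Per kilobase of exon (all annotated exons of a gene in GENCODE vM21 merged), *Cd9* had the highest level of the 8 in every group, at 1192, 1109 and 862 CPM per kb in control mAMs, RXR-deficient mAMs and ImmAMs. *Tyrobp* came next in every group, at 712, 654 and 755 CPM per kb. *Trem2* had the lowest level in every group, at 7.36, 13.1 and 32.7 CPM per kb. In ImmAMs, *Gpnmb* (159 CPM per kb) passed *Lgals1* (140), and *Lgals1* did not differ from *Cd63* (137) beyond the spread of the libraries. In RXR-deficient mAMs, *Spp1* (439) and *Lgals3* (418) did not differ beyond their spread. The order depends on the length used. With the median length of the coding transcripts, which for *Trem2* is 1072 bases against 4946 bases of merged exons, *Lgals3* came before *Tyrobp* in every group, and *Trem2* (151 CPM per kb) overlapped *Lgals1* (158) in ImmAMs. With that length, *Cd63* (479) also came before *Gpnmb* (338) and *Spp1* (249) in ImmAMs, and *Trem2* (33.95) overlapped *Cd63* (40.29) in control mAMs.

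Across the 11 libraries, log2 levels of *Trem2*, *Gpnmb* and *Cd63* were closely alike, with Pearson correlations of 0.98 for *Trem2* with *Cd63*, 0.98 for *Gpnmb* with *Cd63* and 0.95 for *Trem2* with *Gpnmb*. *Tyrobp* was most like *Lgals3* (0.80) and had a correlation of 0.39 with its receptor gene *Trem2*. These values describe libraries that fall into 3 groups and rest mainly on the differences between them. The 9939 genes compared all had a mean over the 11 libraries no lower than 5 CPM. Among them, the 2 genes most like *Trem2* were *Nfe2* (r = 0.994) and *Gm14548* (r = 0.991). *Nfe2* encodes a transcription factor known from megakaryocytes and red cell precursors, and its mean was 8.11 CPM in control mAMs, 18.1 CPM in RXR-deficient mAMs and 60.1 CPM in ImmAMs. The genes nearest to *Cd63* were *Mast4* (r = 0.997), with means of 0.752, 7.31 and 58.0 CPM, and the cyclooxygenase gene *Ptgs1* (r = 0.993), with means of 16.1, 52.3 and 193 CPM. *Gpnmb* was nearest to *Plpp3* (0.990) and *Prickle2* (0.988), and *Cd9* to *Rras2* (0.987) and *Hmgn2* (0.986). *Spp1* was nearest to *Itgax* (0.986), which encodes CD11c, and to *Spn* (0.967). *Lgals1* was nearest to *Gnb2* (0.984) and *Mapk3* (0.983), *Lgals3* to *Nenf* (0.968) and *Cebpa* (0.946), and *Tyrobp* to *Mpnd* (0.930) and *Tesk1* (0.924).

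The genes that act with TREM2 were followed through lists written from general knowledge. One gene each of 5 of the 6 lists, *Lat2*, *Treml1*, *Syngr1*, *Tspan2* and *Sdc4*, reached 1 CPM in 3 libraries only through the ImmAMs. Such a gene had to be higher there, so the counts in ImmAMs are also given without it, beside 21.4% higher and 26.5% lower among the 12278 genes that passed the filter without the ImmAMs. Of 18 tested genes for its ligands, adaptors, signalling proteins and sheddases, none was called between RXR-deficient and control mAMs by limma (median log2 fold change −0.06), with 5 at an unadjusted p under 0.05. limma-voom called 0, edgeR 1 (*Lat2*) and DESeq2 3 (*Lat2*, *Inpp5d* and *Plcg2*). In ImmAMs against control mAMs, 5 were higher and 4 lower, with a median of 0.01. Without *Lat2*, 4 of 17 were higher and 4 lower (23.5% each), near the shares over all genes. *Apoe*, the gene of a lipoprotein that TREM2 binds, was at 17.9 ± 3.88 CPM (n = 4) in control mAMs and 12.3 ± 2.99 CPM (n = 3) in RXR-deficient mAMs, and rose to 1076 ± 96.3 CPM (n = 3) in ImmAMs. This was 61.1-fold the control level (log2 fold change 5.93, limma p-adj = 7.99e-11). *Lat2*, the gene of the NTAL adaptor downstream of SYK, had 2 to 3 reads in each control library and 569 to 736 reads in each ImmAM library, 33.6 ± 0.735 CPM (n = 3, limma p-adj = 3.78e-07). The other 3 that rose were *Pik3cd*, *Vav3* and *Inpp5d*. *Syk* itself, with *Btk*, *Plcg2* and *Ptpn6*, made up the 4 that fell, by at most 0.52 on the log2 scale. The smallest of these falls, in *Plcg2* (0.15), was lost with all 11 libraries (limma p-adj = 0.124) and in 7 of the 10 fits without 1 library, and was kept without control replicate 1 or without RXR-deficient replicate 2 or 3. These genes other than *Apoe* and *Lat2* were named after their values were seen.

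Of 13 other TREM-family genes and genes of receptors that pair with DAP12, 1 was called lower between the mAM groups, and 6 were higher and 5 lower in ImmAMs against control mAMs. Without *Treml1*, 5 of 12 were higher and 5 lower (41.7% each) in ImmAMs, beside 21.4% and 26.5% of all genes that passed the filter without the ImmAMs. *Treml4* fell from 46.1 ± 4.56 CPM (n = 4) in control mAMs to 32.2 ± 4.20 CPM (n = 3) in RXR-deficient mAMs (log2 fold change −0.52, limma p-adj = 0.0369). It fell to 3.16 ± 0.318 CPM (n = 3) in ImmAMs (log2 fold change −3.87, limma p-adj = 1.30e-10), so that it went the opposite way to *Trem2* in both comparisons. *Treml2* rose from 0.965 ± 0.215 CPM (n = 4) to 8.42 ± 0.950 CPM (n = 3) in ImmAMs (log2 fold change 3.15, limma p-adj = 1.06e-04). The call of *Treml4* between the mAM groups was lost without RXR-deficient replicate 1 (limma p-adj = 0.122) or 3 (0.143) and without control replicate 1 (0.0538), 2 (0.106) or 4 (0.0699).

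Among 42 further genes known from lipid-associated macrophages, 5 were called higher and 1 lower between RXR-deficient and control mAMs (median log2 fold change 0.02). Without RXR-deficient replicate 2, which was nearest to control mAMs, the count went from 6 to 13, with 7 higher and 6 lower, and DESeq2 called 15. *Mmp12*, the macrophage elastase gene, rose from 5.11 ± 1.41 CPM (n = 4) to 52.8 ± 24.5 CPM (n = 3), 9.71-fold (log2 fold change 3.28, limma p-adj = 1.11e-04). The others that rose, named after their values were seen, were *Csf1*, *Ctsk*, *Emp1* and *Cd52*. The call of *Cd52* was lost without RXR-deficient replicate 1 (limma p-adj = 0.0747) or 3 (0.0997) and without control replicate 2 (0.0713) or 3 (0.0567). That of *Csf1* was kept in 3 of the 10 fits without 1 library, those without RXR-deficient replicate 2 or control replicate 1 or 4, and was otherwise at limma p-adj of 0.0587 to 0.137. *Fabp4*, the gene of a fatty acid binding protein and a target of PPARγ, fell from 159 ± 32.5 CPM (n = 4) to 59.1 ± 18.04 CPM (n = 3) (log2 fold change −1.45, limma p-adj = 0.00183). In ImmAMs against control mAMs, 20 of the 42 were higher and 14 lower (median 0.13). Without *Syngr1*, 19 of 41 (46.3%) were higher and 14 (34.1%) lower, beside 21.4% and 26.5% of all genes that passed the filter without the ImmAMs. *Mmp12* reached 1627 ± 79.6 CPM (n = 3; log2 fold change 8.35, limma p-adj = 2.48e-10), and *Syngr1* rose to 35.3 ± 0.572 CPM (n = 3, limma p-adj = 5.68e-06) from 1 to 22 reads per control library.

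Genes of lysosomal proteins and of lipid handling in this list went both ways in ImmAMs against control mAMs. *Ctsk*, the cathepsin K gene, rose from 274 ± 23.9 CPM (n = 4) to 1060 ± 1.07 CPM (n = 3; log2 fold change 1.95, limma p-adj = 9.72e-10). *Npc2*, a lysosomal cholesterol carrier gene, rose by 0.62 on the log2 scale (limma p-adj = 2.56e-06), while *Lipa*, the lysosomal acid lipase gene, fell by 0.49 (limma p-adj = 4.86e-04). *Lpl*, the lipoprotein lipase gene, fell from 3930 ± 821 CPM (n = 4) to 564 ± 19.6 CPM (n = 3; log2 fold change −2.78, limma p-adj = 2.75e-09). *Plin2*, a gene of the lipid droplet coat, fell by 1.40 on the log2 scale (limma p-adj = 2.07e-08). *Fabp5*, a fatty acid binding protein gene, rose by 0.32 (limma p-adj = 0.00849), as did *Apoe*, and *Cd36*, a scavenger receptor gene, was not called (log2 fold change −0.25, limma p-adj = 0.128). These genes were chosen after their values were seen, and neither grouping was tested.

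Of 16 other tetraspanins and their partners, 1 was called higher and 1 lower between the mAM groups, and 7 higher and 3 lower in ImmAMs against control mAMs (median log2 fold change 0.18). Without *Tspan2*, 6 of 15 (40%) were higher and 3 (20%) lower in ImmAMs, beside 21.4% and 26.5% of all genes that passed the filter without the ImmAMs. Without ImmAM replicate 4, 6 of the list were called in all. *Tspan4* rose from 7.003 ± 0.538 CPM (n = 4) to 10.99 ± 1.91 CPM (n = 3) in RXR-deficient mAMs (log2 fold change 0.64, limma p-adj = 0.0328) and to 20.3 ± 2.44 CPM (n = 3) in ImmAMs (1.53, limma p-adj = 2.26e-06), in the same order as *Cd63*. *Igsf8*, the gene of a partner of CD9 and CD81, fell by 0.34 in RXR-deficient mAMs (limma p-adj = 0.0498). This call was lost with all 11 libraries (p-adj = 0.476), and in 9 of the 10 fits without 1 library, the one without control replicate 1 being the exception, at limma p-adj of 0.0584 to 0.158. That of *Tspan4* between the mAM groups was lost without RXR-deficient replicate 1 (limma p-adj = 0.124) or 3 (0.0979) and without control replicate 2 (0.0883) or 3 (0.0549). *Tspan13* rose from 3.16 ± 0.956 CPM (n = 4) to 25.2 ± 3.83 CPM (n = 3) in ImmAMs (3.03, limma p-adj = 3.20e-06). *Tspan3* rose against RXR-deficient mAMs, from 1.86 ± 0.801 CPM (n = 3) to 6.18 ± 0.826 CPM (n = 3; log2 fold change 1.83, limma p-adj = 0.00255).

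Of 5 other galectins and galectin ligands, *Lgals9* rose in RXR-deficient mAMs from 60.9 ± 4.08 CPM (n = 4) to 84.3 ± 12.7 CPM (n = 3) (log2 fold change 0.46, limma p-adj = 0.0360). It was also called higher in ImmAMs than in control mAMs (0.40, limma p-adj = 0.00911). *Lgals3bp*, the gene of a secreted protein that binds galectin-3, fell in ImmAMs from 229 ± 8.70 CPM (n = 4) to 135 ± 8.03 CPM (n = 3) (−0.76, limma p-adj = 1.84e-06). The call of *Lgals9* between the mAM groups was lost without RXR-deficient replicate 1 (limma p-adj = 0.121) or 3 (0.143), without control replicate 2 (0.0609), 3 (0.0696) or 4 (0.0699) and without ImmAM replicate 3 (0.0510), and that in ImmAMs without ImmAM replicate 4 (0.0512).

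Of 11 genes for osteopontin and GPNMB receptors and MiT transcription factors, none was called by limma between the mAM groups (median log2 fold change 0.07), with 4 at an unadjusted p under 0.05. edgeR and limma-voom called 0 of them and DESeq2 3 (*Itga4*, *Mitf* and *Tfeb*). Of the 11, 9 were higher and 1 lower in ImmAMs against control mAMs (median 0.46). Without *Sdc4*, 8 of 10 were higher and 1 lower (median 0.38), beside 21.4% and 26.5% of all genes that passed the filter without the ImmAMs. Without ImmAM replicate 2, 5 of the list were called in all. *Itga4*, an integrin subunit gene for a receptor of osteopontin, rose from 208 ± 37.8 CPM (n = 4) to 742 ± 42.9 CPM (n = 3) in ImmAMs (log2 fold change 1.85, limma p-adj = 1.10e-06), and *Itga5* from 135 ± 14.9 CPM (n = 4) to 261 ± 20.5 CPM (n = 3) (0.96, limma p-adj = 4.94e-06). *Cd44*, a further osteopontin receptor gene, fell against RXR-deficient mAMs from 2061 ± 40.5 CPM (n = 3) to 1174 ± 51.0 CPM (n = 3) (−0.81, limma p-adj = 2.43e-05). In ImmAMs, the integrin genes were thus higher where the gene of their ligand, *Spp1*, was lower.

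**Figure D4:**
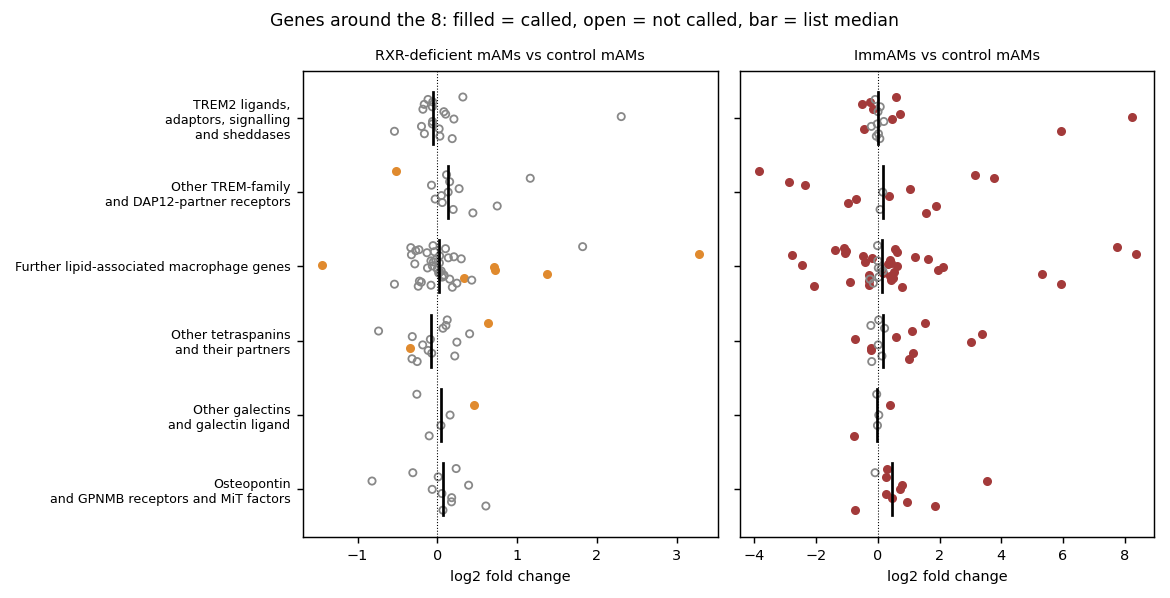
Log2 fold change (x axis; the panels have different scales) of every tested gene of the 6 lists (y axis) in RXR-deficient mAMs (left) and ImmAMs (right), both against control mAMs; filled points passed limma p-adj 0.05, open points did not, and bars are list medians. Few genes are filled on the left, 6 of 42 in the list of further lipid-associated macrophage genes, and on the right 34 of those 42 are, 20 higher and 14 lower. Over all genes tested, 4.84% were called in the left comparison and 48.1% in the right.

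Markers of AMs and of other cells moved between the groups as well. Of the AM genes, *Siglecf* was at 257, 221 and 19.6 CPM (means of control mAMs, RXR-deficient mAMs and ImmAMs) and *Marco* at 342, 283 and 12.6 CPM, while *Pparg* was at 198, 225 and 218 CPM. The sum over all 10 AM genes was 20706 to 26889 CPM in control mAMs, 25437 to 31376 CPM in RXR-deficient mAM replicates 1 to 3 and 23561 to 25354 CPM in ImmAMs, most of it from *Chil3*, so that ImmAMs lay within the range of control mAMs. Of its 10 genes, 8 lay below every control library in every ImmAM library, and *Chil3* and *Pparg* did not. The sum over 6 monocyte genes was 1499 to 2172 CPM in control mAMs, 1418 to 1723 CPM in RXR-deficient mAM replicates 1 to 3 and 6723 to 7384 CPM in ImmAMs, most of it from *Fn1*, with *Ccr2* at 11.4, 16.3 and 83.0 CPM. The sum over 7 interstitial macrophage genes was 400 to 435, 353 to 463 and 423 to 457 CPM, with *Mertk* at 418, 415 and 232 CPM. The sum over 5 neutrophil genes was 28.9 to 39.6, 83.1 to 314 and 869 to 940 CPM, of which *Mmp8* gave 66.3% to 78.8%, 87.1% to 96.3% and 97.2% to 97.9%, while *S100a8* stayed at or below 16.6 CPM and *S100a9* at or below 3.84 CPM. Further sums were higher in every ImmAM library than in every mAM library. Over the same 3 groups, that of dendritic cell genes (2 genes) was 5.40 to 7.24, 6.16 to 8.12 and 20.7 to 24.1 CPM, and that of club and ciliated cell genes (2), nearly all *Tppp3*, was 110 to 177, 150 to 205 and 258 to 266 CPM. The alveolar type 2 cell gene in the table, *Napsa*, was at 0.806 to 2.65, 1.34 to 4.24 and 8.53 to 9.21 CPM, and the eosinophil gene, *Alox15*, at 0.0132 to 0.469, 0.0231 to 1.13 and 2.30 to 3.36 CPM. The erythroid sum (3 genes) was highest in control mAMs, at 2.95 to 9.55 CPM against 0.531 to 2.65 CPM in the other groups. Over all 11 libraries, sums were 0.415 to 6.51 CPM for B cell genes (2) and 441 to 689 CPM for dissociation stress (9). The T cell, NK cell, endothelial cell and fibroblast lists gave no value here. The neutrophil sum, most of it *Mmp8*, which the study counts among the AM-core genes, moves with *Trem2*, *Gpnmb* and *Cd63* over the 3 groups. The monocyte, dendritic cell, alveolar type 2, club and ciliated and eosinophil sums are higher with them in ImmAMs, whereas the monocyte sum was not higher in RXR-deficient than in control mAMs. The part of these markers in the results was not tested. The deleted genes were still counted in the libraries with Cre, *Rxra* at 344, 344 and 291 CPM and *Rxrb* at 59.8, 46.1 and 33.5 CPM in the 3 groups, and a value per gene does not show the removed exons.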

How the data were processed

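RNA was sequenced from sorted alveolar macrophages of 3 groups, in 11 libraries that the submitters call individual biological replicates. The design text names lung digestion as the source and the study's methods name bronchoalveolar lavage. Per the labels and the study's methods, Cutadapt was used for trimming and RSEM 1.3.1 for counting against the transcriptome of GRCm38; the authors then scaled by TMM in limma and dropped genes that did not reach 1 CPM in 3 samples. The deposited values are CPM, and each is a whole number of reads plus 0.5 times a step fixed within a library. Whole reads, within 0.01, were so recovered for 100% of the values. The reads counted per library were 16659960 to 37873532, so that the precision of the 8 genes is set by the spread between libraries; the setting of RSEM for strand is not given in the sources used here.

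Log2 of the deposited values was fitted in limma 3.58.1 (R 4.3.3), with 3 group means over 10 libraries (without RXR-deficient mAM replicate 4), eBayes with a variance trend, two-sided moderated tests and Benjamini-Hochberg adjustment over the 12889 genes that reached 1 CPM in 3 of these libraries. A gene with p-adj under 0.05 is called changed. No further pseudocount was added. Alternatives were all 11 libraries, a pseudocount of 1 CPM, quantile normalization, median-ratio scaling, no filter on low genes, one of 5 CPM, no variance trend, only the 2 groups compared, edgeR 4.0.16 (quasi-likelihood), DESeq2 1.42.0 and limma-voom on the recovered reads, replicate number as a block, and each of the 10 libraries left out in turn. The fits were tested on simulated data in which every gene and library had the same dispersion. That test therefore does not cover the uneven spread of the real groups.

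Members, lists and tests were chosen with earlier results of these data known. Named genes are the 8 members, the 2 called genes of largest change per list and comparison (higher group at 5 CPM or above on average, no overlap), the 2 genes most like each member, *Rxra*, *Rxrb* and AM markers. Marker lists of monocytes, interstitial macrophages, neutrophils, eosinophils, fibroblasts, dendritic, B, T, NK, endothelial, erythroid, alveolar type 2 and club and ciliated cells and of dissociation stress were also summed. Positions and lengths come from GENCODE vM21 (GRCm38), in which 12919 of the 12932 genes were found, and promoters from RefSeq. Single values of some genes of the lists are not reported here, and the counts and sums include them.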

Additional observations from a re-analysis of the deposited data

Results flagged for a closer look

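Among 16 groups of 4 libraries, the lowest and highest values of each of the 8 genes were compared with the rest of their group by Dixon's criterion, which chance passes in about 1 of 20 groups, and 2 groups passed. *Tyrobp* in RXR-deficient mAM replicate 4, at 593 CPM, was far above the other 3 libraries, with a gap of 0.913 of the group's range. *Spp1* in control mAM replicate 4, at 449 CPM, was far below the other 3, with a gap of 0.846 of the range.

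RXR-deficient mAM replicate 4 was not used in the comparisons and lay above all 4 control libraries in 6 of the 8 genes. Its values were 93.0 CPM for *Trem2* (highest control 40.2 CPM), 593 CPM for *Tyrobp* (515 CPM), 485 CPM for *Gpnmb* (421 CPM), 895 CPM for *Spp1* (588 CPM), 163 CPM for *Cd63* (57.1 CPM) and 956 CPM for *Lgals3* (900 CPM). The share of all genes in which replicate 4 lay above all 4 control libraries was not computed.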

How the results depend on the processing

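None of the 24 log2 fold changes of the 8 genes changed sign under any of the alternatives that were run. The number of the 8 called between RXR-deficient and control mAMs was 4 in the main model and 1 (*Cd63*) without a variance trend, where *Trem2* (p-adj = 0.0516) and *Gpnmb* (0.0680) were lost. Leaving out 1 library gave 2 to 5 called, with 2 without RXR-deficient replicate 1 or 3. In ImmAMs, leaving out 1 library gave 6 to 6 against control mAMs and 5 to 8 against RXR-deficient mAMs. Replicate numbers are shared across groups. Same-numbered libraries had correlations of −0.13 to 0.26 (10 pairs) in their deviations from the group means, beside −0.30 to 0.23 for other pairs (30). Such correlations cannot show whether same-numbered libraries come from the same mouse, and the main model treats all libraries as independent. With the replicate block, 3, 6 and 6 of the 8 were called in the 3 comparisons. *Lgals1* was lost between the mAM groups (p-adj = 0.114) and gained between ImmAMs and RXR-deficient mAMs (0.0207), and *Lgals3* was lost there (0.120).

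Over all genes, 624 were called between the mAM groups, and 1368 by DESeq2, 337 with all 11 libraries, 122 without a variance trend, 199 with only the 2 groups in the fit, 174 with the replicate block and 162 to 861 without 1 library, so that calls in this comparison depend on the model and on single libraries. The lists moved in the same comparison. With the replicate block, 0 of the other TREM genes, 0 of the tetraspanins and 0 of the galectins were called by limma, where 1, 2 and 1 were in the main model, at an unadjusted p under 0.05 for 4, 5 and 2. With all 11 libraries, 1 of the TREM2 partners and 1 tetraspanin was called. edgeR, DESeq2 and limma-voom were added for the lists after the data were seen. Counts that moved by over 1.5 times from the main model were, with edgeR, 1 TREM2 partner, 2 other TREM genes and 1 tetraspanin, with limma-voom, 1 tetraspanin, and with DESeq2, 3 TREM2 partners, 4 other TREM genes, 15 further lipid-associated macrophage genes and 3 osteopontin and GPNMB receptor or MiT genes.

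Leaving out 1 library, the counts between the mAM groups were 0 to 1 TREM2 partners, 0 to 3 other TREM genes, 4 to 13 further lipid-associated macrophage genes, 0 to 2 tetraspanins, 0 to 1 galectins and 0 to 3 osteopontin and GPNMB receptor or MiT genes. The upper ends of 13 and of 3 other TREM genes came without RXR-deficient replicate 2, and that of 3 receptor or MiT genes without control replicate 1. In ImmAMs against control mAMs they were 8 to 9, 10 to 11, 31 to 35, 6 to 10 (6 without ImmAM replicate 4), 1 to 2 and 5 to 10 (5 without ImmAM replicate 2), and against RXR-deficient mAMs 5 to 7, 9 to 11, 29 to 32, 7 to 10, 1 to 1 and 4 to 8. In fits without an ImmAM library, *Treml1*, *Tspan2* and *Sdc4* no longer passed the filter, and 12, 15 and 10 genes of their lists were tested where 13, 16 and 11 were in the main model. The cause of the rest was not tested. The lowest count behind any value of the 8 genes was 625 reads (*Cd63* in control replicate 4), so that depth limits *Lat2* and *Syngr1* in control mAMs rather than the 8.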
